A study of Mus musculus with 4 samples.

Results

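The Ifit genes encode interferon-induced proteins with tetratricopeptide repeats, and 4 of them, Ifit1, Ifit2, Ifit3 and Ifit3b, were followed here in mouse cell isolates labelled microglia, the resident macrophages of the brain. They were taken by gene symbol from a count table of 26051 features, and all 4 were found and passed the filter on low counts. The libraries titled ko (numbers 1 and 3) were set against those titled ff (numbers 2 and 5), 2 libraries in each group. All isolates were taken at embryonic day 14 in a study that deleted Hat1, a histone acetyltransferase gene, conditionally with Cre recombinase and loxP sites. The labels and design text name no Cre driver, deleted exons or strain and do not spell out ff, nor do they say whether a library came from 1 embryo or several. P-values therefore measure the spread between these libraries, which may be technical in part.

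Ifit proteins are made in response to interferon and to viral RNA. They bind RNA directly, and Ifit1 holds the 5′ end of RNAs whose cap lacks ribose methylation, as that of many viruses does, and keeps such RNA from being translated. Ifit2 is required in mice for the control of several viruses that infect the brain. IFIT3 in humans stabilises IFIT1 and strengthens its grip on capped RNA, and Ifit3b is a close mouse paralog of Ifit3. Their genes are induced through a DNA element bound by interferon regulatory factors.

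The genes lie in 1 cluster on chromosome 19, in the order Ifit2, Ifit3, Ifit3b and Ifit1 by lowest coordinate. By the same measure Ifit1bl1 falls between Ifit3 and Ifit3b, although its RefSeq record also overlaps Ifit3b and Ifit1. Ifit1bl2 and a pseudogene fall between Ifit3b and Ifit1. Ifit3 and Ifit3b share part of their upstream sequence. RefSeq promoter windows of 300 bases (250 before the start and 50 after it, build GRCm38.p6) were available for all 4, and were searched on both strands for GAAANNGAAA, the core of the interferon-stimulated response element. A match on the opposite strand is printed as its reverse complement. At least 1 match was found for 3 of the 4 genes, and for 3.99% of all 27025 genes with a window (3.44% of 32851 windows). Ifit1, Ifit3 and Ifit3b each held 2 matches, with the same letters in the same order. The stretches before the start are shown because they hold the matches, which are in capitals:
Ifit1 (chr19:34640744-34640888, plus strand): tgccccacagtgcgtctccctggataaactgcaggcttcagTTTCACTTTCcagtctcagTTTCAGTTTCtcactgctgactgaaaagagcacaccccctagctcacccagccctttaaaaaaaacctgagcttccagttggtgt
Ifit3 (chr19:34583279-34583528, plus strand): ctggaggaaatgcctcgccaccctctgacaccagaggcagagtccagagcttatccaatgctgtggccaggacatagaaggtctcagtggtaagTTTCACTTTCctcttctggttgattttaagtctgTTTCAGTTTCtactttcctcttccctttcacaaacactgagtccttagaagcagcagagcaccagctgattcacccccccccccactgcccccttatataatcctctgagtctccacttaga
Ifit3b (chr19:34607707-34607956, plus strand): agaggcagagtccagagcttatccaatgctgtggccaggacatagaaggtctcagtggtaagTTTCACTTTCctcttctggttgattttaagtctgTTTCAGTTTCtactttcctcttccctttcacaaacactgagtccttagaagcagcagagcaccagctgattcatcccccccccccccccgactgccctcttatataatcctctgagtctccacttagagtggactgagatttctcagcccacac

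The matches of Ifit3 began 156 and 122 bases before the start and those of Ifit3b 188 and 154 bases before it, 34 bases apart in both genes. The windows of these paralogs share an identical run of 169 bases, which holds both matches. In Ifit1 the matches began 104 and 85 bases before the start. The 145 bases printed for Ifit1 are all that separates its start from 1 of the starts of Ifit1bl2, a related gene read in the opposite direction. Both matches therefore stand upstream of Ifit1 and of that start. Of the 2 windows of Ifit1bl2 only 1 held a match. Both windows of Ifit1bl1 held a match, which began 104 bases before the start in 1 and 23 bases before it in the other. Neither of the 2 windows of Ifit2 held a match, which says only that these letters are absent from those windows. These coordinates belong to GRCm38.p6, whereas the counts were made on GRCm39.

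Libraries held between 14814846 and 18990917 counts. Expression is given as CPM, counts scaled to library sizes adjusted by trimmed mean of M-values, and log2 fold changes are ko over ff, tested with edgeR. Hat1 itself had 737 and 581 counts in ko libraries 1 and 3 and 650 and 1149 in ff libraries 2 and 5, with a log2 fold change of -0.61 ± 0.23 (SE) and an edgeR adjusted p of 0.298. Counts cover the whole gene, so the deleted exons were not checked on their own. The log2 fold change passed without ff library 2 (-0.91, adjusted p = 0.00286) without ko library 1 (-0.67, adjusted p = 0.000114) and with no filter on low counts (-0.61, adjusted p = 2.3e-05), and was -0.25 without ff library 5. Ko library 1 held 6013 counts of 4 Y-linked genes and the other 3 at most 1. Without that library the log2 fold changes were 1.84 (Ifit1), 1.90 (Ifit2), 2.06 (Ifit3) and 2.20 (Ifit3b), and all 4 were still called.

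All 8 microglia markers were in the table, and their summed level was 9034 to 9403 CPM in ko and 10825 to 11072 CPM in ff. Most of that sum came from Csf1r, a receptor gene that other macrophages also express. Tmem119 (log2 fold change 0.61, edgeR adjusted p = 0.0158) and Aif1 (0.47, adjusted p = 0.0329) were higher in ko, and Cx3cr1 (-0.92, adjusted p = 0.00108) was lower. The 7 markers of border-associated macrophages, all in the table, had larger sums than those of microglia in every library, at 12550 to 14242 CPM in ko and 15741 to 18096 CPM in ff (CPM, not per length). Among them Mrc1 had 5126 ± 421 CPM in ko and 6978 ± 594 CPM in ff (SD, n = 2 per group), and Pf4 had 961 ± 52.8 and 979 ± 79.2 CPM. The microglial P2ry12 had 933 ± 71.6 CPM in ko and 952 ± 34.6 CPM in ff, and Cx3cr1 had 1198 ± 107 and 2265 ± 39.0 CPM. Levels of single markers in both lists thus overlapped. Cd163 was the 1 called marker of border-associated macrophages, lower in ko (-0.87, edgeR adjusted p = 0.00400). The isolates therefore held markers of both kinds of macrophage. Lymphocyte markers were low, with 11 of 11 detected and 1 of 10 tested past the threshold. Their sums were higher in ko, at 40.5 to 44.3 CPM against 19.7 to 24.8 CPM in ff. The called marker was Gzma, a protease of cytotoxic lymphocytes, with 44 and 46 counts in ko and 2 and 3 in ff (edgeR adjusted p = 0.0131). The median log2 fold change over the 10 tested markers was 1.30, against 0.01 over all tested genes. Cd3e alone had a lower mean in ko, from 6 and 7 counts in ko and 12 and 6 in ff, and was not tested. Mural cell and fibroblast markers came to 488 to 695 CPM in ko and 292 to 439 CPM in ff, with 0 of 7 called. Those of monocytes and neutrophils came to 124 to 128 CPM in ko and 88.5 to 97.7 CPM in ff, and 1 of 4 tested, Ccr2, was higher (0.51, adjusted p = 0.0405). Markers of plasmacytoid dendritic cells, which make much interferon, summed to 159 to 190.0 CPM in ko and 186 to 188 CPM in ff. Most of that sum came from Siglech alone, at 176 and 148 CPM in ko and 170 and 171 CPM in ff. It therefore does not show that such cells were present. The part of these cells in the rise of the Ifit genes was not tested. No marker found in the table was at 0 in all libraries. In such bulk isolates fewer cells of a type and less RNA per cell cannot be told apart.

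All 4 Ifit genes rose in the ko libraries, with a median log2 fold change of 2.01, or 4.03-fold, where the median over all 15840 tested genes was 0.01. Of all tested genes 188 (1.19%) were higher and 82 (0.518%) lower in ko at an adjusted p under 0.05 by edgeR's quasi-likelihood test with Benjamini-Hochberg adjustment. In each of the 4 both ko libraries lay above both ff libraries, as they did in 25.8% of tested genes. By size of the log2 fold change the members stood at places 71 (Ifit3b), 78 (Ifit3), 90 (Ifit2) and 118 (Ifit1) of 15840.

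**Figure D1:**
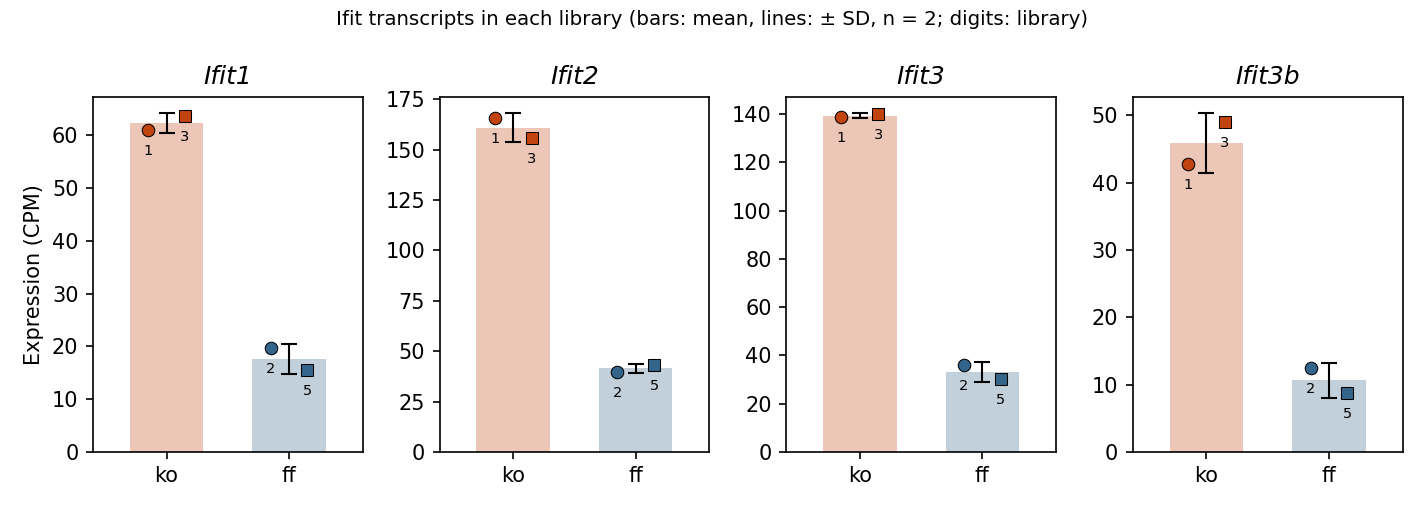
Expression in CPM (y axis, linear) of Ifit1, Ifit2, Ifit3 and Ifit3b in ko and ff libraries; bars are means, lines the SD (n = 2), points single libraries with their number. In every panel both ko libraries lie above both ff libraries, for Ifit2 at 166 and 156 against 39.9 and 43.0 CPM.

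Ifit1, the member that recognises the RNA cap, had 1144 and 1008 counts in ko libraries 1 and 3, against 288 and 251 in ff libraries 2 and 5. This came to 60.9 and 63.6 CPM in ko and 19.6 and 15.6 CPM in ff. The ko libraries lay close together and the gap to the ff libraries was wider than the spread within either group. Its mean was 62.2 ± 1.88 CPM in ko and 17.6 ± 2.86 CPM in ff (SD, n = 2 per group), and its log2 fold change of 1.82 ± 0.13 (SE) had an edgeR adjusted p of 0.000381.

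Ifit2, the member needed in mice for antiviral defence in the brain, had 3115 and 2471 counts in ko libraries 1 and 3 and 585 and 693 in ff libraries 2 and 5. In CPM these were 166 and 156 in ko, against 39.9 and 43.0 in ff. The groups did not overlap, and ff library 5 was the higher of its group for this gene alone among the 4. Means were 161 ± 7.09 CPM in ko and 41.5 ± 2.23 CPM in ff (SD, n = 2 per group). The log2 fold change was 1.96 ± 0.09 (SE), or 3.88-fold, with an edgeR adjusted p of 6.3e-05.

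Ifit3, whose human counterpart is a partner of IFIT1, had 2605 and 2221 counts in ko libraries 1 and 3 and 531 and 489 counts in ff libraries 2 and 5. After scaling, the ko libraries were at 139 and 140.0 CPM and the ff libraries at 36.2 and 30.4 CPM. The ko libraries were nearly level, and both stood far above the ff libraries. The log2 fold change was 2.07 ± 0.10 (SE), or 4.19-fold, with an edgeR adjusted p of 8.66e-05.

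Ifit3b had 803 and 777 counts in ko libraries 1 and 3, against 183 and 141 in ff libraries 2 and 5. Its CPM values were 42.7 and 49.0 in ko and 12.5 and 8.76 in ff. It had the widest spread of the 4 within each group relative to its level in ff, yet the groups remained apart. The log2 fold change was 2.11 ± 0.18 (SE), or 4.33-fold, with an edgeR adjusted p of 0.00116.

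Ifit3 and Ifit3b resemble each other enough for reads to be split between them. Of the 150-base stretches in the annotated Ifit3 transcript, 18.5% also occur in the Ifit3b transcript, and 16.0% of those of Ifit3b occur in Ifit3 (GENCODE M21 transcripts). How the authors treated reads that fit both is not given, so the separate values of these paralogs are uncertain by an amount not measured here. The shares do not bound it, because Ifit3 had more counts than Ifit3b and only exact matches were counted. With their counts summed into 1 feature the log2 fold change was 2.08 ± 0.11 (SE), with an edgeR adjusted p of 0.000138. Ifit1 and Ifit2 share no such stretch with another member, while 1.24% of those of Ifit1 occur in Ifit1bl2.

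**Figure D2:**
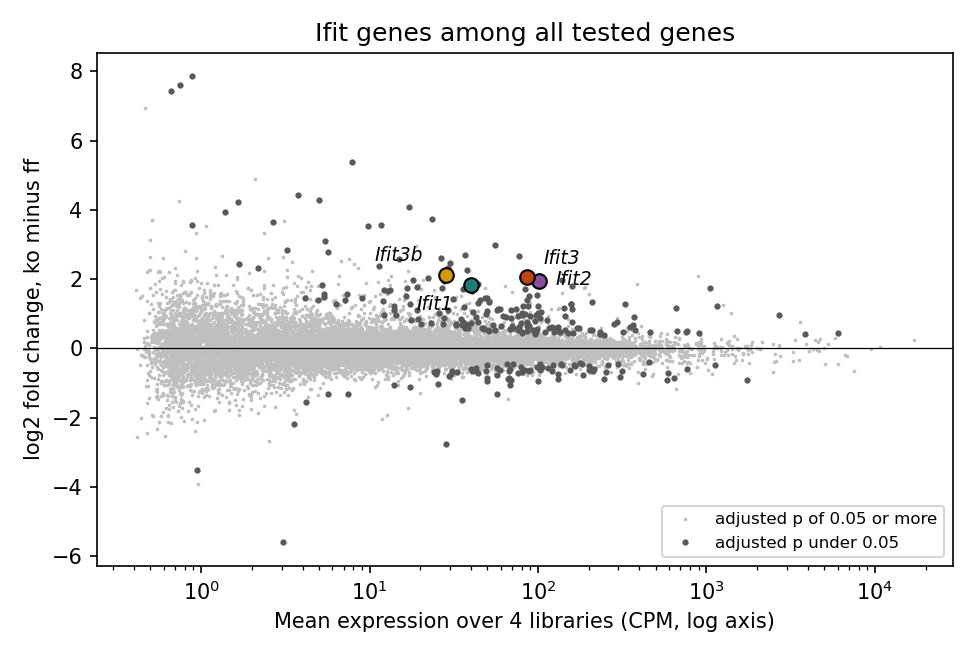
Log2 fold change of ko minus ff (y axis) against mean expression over 4 libraries (x axis, CPM on a log axis) for all 15840 tested genes; dark points have an edgeR adjusted p under 0.05 and coloured points are the Ifit members. The members sit between 1.82 and 2.11 on the log2 scale.

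Taken as 1 quantity, the counts of the 4 genes summed to 7667 and 6477 in ko libraries 1 and 3, against 1587 and 1574 in ff libraries 2 and 5. This was 0.0404% and 0.0411% of all counts in ko and 0.0107% and 0.00986% in ff. The ko libraries agreed closely, at 408 ± 0.172 CPM, against 103 ± 7.38 CPM in ff (SD, n = 2 per group). The ratio of the means was 3.96. An exact two-sided permutation test gave p = 0.333, the smallest that 2 libraries against 2 allow.

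The shares of the 4 transcripts in that sum lay near each other in the groups, and those of Ifit2 and Ifit3b overlapped between them. Ifit2 made up 40.6% and 38.2% of the family's counts in ko libraries 1 and 3, against 36.9% and 44.0% in ff libraries 2 and 5, with 95% Wilson intervals from 34.5% to 39.3% in ff library 2 and from 41.6% to 46.5% in ff library 5. The ff libraries thus bracketed the ko libraries for this member, and the intervals cover counting error only. Ifit3 held between 34.0% and 34.3% in ko and between 31.1% and 33.5% in ff. Ifit1 held 14.9% and 15.6% in ko and 18.1% and 15.9% in ff, with overlapping intervals in ko library 3 and ff library 5, and Ifit3b held 10.5% and 12% in ko and 11.5% and 8.96% in ff.

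Ratios between members within a library were compared next. The log2 ratio of Ifit3 to Ifit1 counts was 1.19 and 1.14 in ko libraries 1 and 3, and 0.88 and 0.96 in ff libraries 2 and 5. That of Ifit3b to Ifit1 was -0.51 and -0.38 in ko and -0.65 and -0.83 in ff. Of the 6 possible pairs these were the 2 in which the groups did not overlap, with differences of 0.24 and 0.30 on the log2 scale between ko and ff. With 2 libraries in each group an exact permutation test on such a ratio could give no p under 0.333, so a difference in response between the members was not shown.

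Per kilobase of annotated exon the order of the levels was Ifit3, Ifit2, and then Ifit1 and Ifit3b together. Ifit3 had 79.9 ± 0.553 CPM per kilobase in ko and 19.1 ± 2.36 in ff (SD, n = 2 per group). Ifit2 followed with 41.0 ± 1.80 in ko and 10.6 ± 0.569 in ff. Ifit1 had 23.4 ± 0.707 CPM per kilobase in ko and 6.63 ± 1.08 in ff, and Ifit3b had 22.9 ± 2.21 in ko and 5.31 ± 1.31 in ff. In each group Ifit3 and Ifit2 differed from their neighbours in this order by more than the spread between libraries, while Ifit1 and Ifit3b overlapped. The exonic lengths behind these levels, from GENCODE M21, were 1745 (Ifit3), 3927 (Ifit2), 2656 (Ifit1) and 2000 bases (Ifit3b).

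The related genes Ifit1bl1 and Ifit1bl2, which lie within the same cluster, were far lower. Ifit1bl1 had 115 and 142 counts in ko libraries 1 and 3, against 65 and 19 in ff libraries 2 and 5. Its log2 fold change of 1.43 ± 0.59 (SE) did not pass the threshold, with an edgeR adjusted p of 0.323. The ff libraries decided this value, which was 2.66 with an adjusted p of 0.00926 without ff library 2 and 0.74 with an adjusted p of 0.423 without ff library 5. It passed when ko library 1 was left out, at 1.08e-05, and with no filter on low counts it was 0.000178. The RefSeq gene record of Ifit1bl1, on the opposite strand, overlaps Ifit3b and Ifit1, whereas its promoter windows lie before that of Ifit3b. Which span was counted is not known. Without a stated strand setting, reads of these genes cannot be told apart where the genes overlap. Ifit1bl2, which at 1 of its starts shares its upstream stretch with Ifit1, had 19 and 7 counts in ko and 4 and 8 in ff. Its groups overlapped and it did not pass the filter on low counts.

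Genes just outside the cluster did not pass the threshold. Of the 5 nearest tested genes on each side, 0 of 10 were called in either direction by the edgeR test, where 1.7% of all tested genes were, with a smallest adjusted p of 0.210 and a median log2 fold change of 0.12. The lysosomal lipase gene Lipa, which adjoins Ifit2, had 587 ± 29.8 CPM in ko and 614 ± 13.3 CPM in ff (SD, n = 2 per group), a log2 fold change of -0.07 ± 0.07 (SE). Slc16a12, a carrier gene next to Ifit1, had 6.06 ± 0.460 CPM in ko and 9.31 ± 0.521 CPM in ff, a log2 fold change of -0.62 ± 0.21 (SE) and an edgeR adjusted p of 0.210. The highest value among the 10 was that of the smooth muscle actin gene Acta2, at 1.45 ± 0.63 (SE), from 22 and 64 counts in ko and 12 and 17 in ff, with an adjusted p of 0.322. Ch25h, an enzyme gene that interferon induces in macrophages, had 38 and 18 counts in ko and 27 and 30 in ff.

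**Figure D3:**
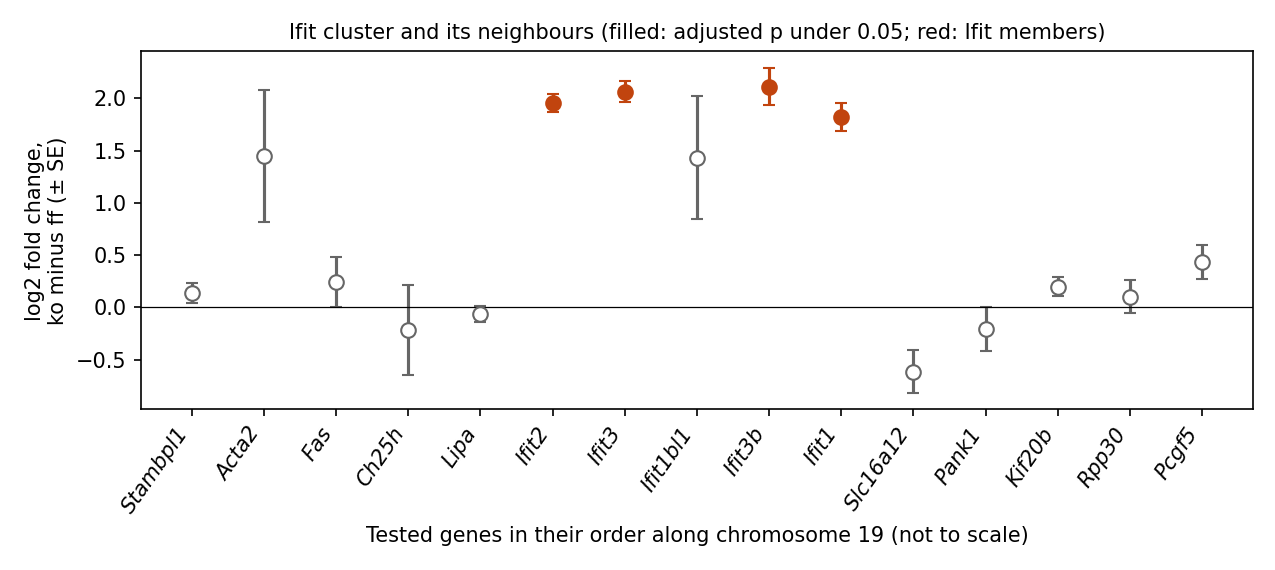
Log2 fold change of ko minus ff with its SE (y axis) for tested genes in their order along chromosome 19 (x axis, not to scale); filled points have an edgeR adjusted p under 0.05. The 4 Ifit members, in red, lie between 1.82 and 2.11, and the 10 flanking genes between -0.62 and 1.45.

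Genes that act before the Ifit genes were read from lists of the interferon pathway. Of 21 interferon genes listed, 6 were in the table and 0 had enough counts to be tested. Ifnb1, the interferon beta gene, had 0 and 1 counts in ko libraries 1 and 3 and 0 and 1 in ff libraries 2 and 5. Ifng, which encodes interferon gamma, had 7 and 5 counts in ko and 0 in each ff library, and Ifnk had 10 and 0 in ko and 13 and 5 in ff. Ifnb1 was picked out after its counts were seen. At these depths levels of interferon transcripts could not be compared between the groups.

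The receptors and their kinases did not pass the threshold in any member, with 0 of 8 tested genes higher and 0 lower by the edgeR test. Of all tested genes 1.7% were called, so a list of this size may well hold no call. The median log2 fold change was 0.03. Ifngr1, a chain of the receptor for interferon gamma, had 1235 ± 17.3 CPM in ko and 1221 ± 39.0 CPM in ff (SD, n = 2 per group). Il10rb, a chain shared by receptors for interferon lambda and interleukin 10, had 319 ± 12.7 CPM in ko and 282 ± 2.69 CPM in ff. The chains of the type I receptor, named after their values were seen, were Ifnar1, with a log2 fold change of -0.35 and an edgeR adjusted p of 0.133, and Ifnar2, at 0.31 with an adjusted p of 0.0975. Ifnar1 passed without ff library 5, at -0.49 with an adjusted p of 0.0239. With no filter on low counts both chains passed, at edgeR adjusted p of 0.00239 (Ifnar1) and 0.0113 (Ifnar2). Jak1 then passed as well, at -0.25 with an adjusted p of 0.0442.

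Transcription factors that act on the Ifit genes rose in part, with 4 of 10 higher and 0 lower. Over all tested genes 1.19% were higher and 0.518% lower. Irf7, a factor that is itself induced by interferon, had 859 and 717 counts in ko libraries 1 and 3, against 107 and 123 in ff libraries 2 and 5. Its means were 45.5 ± 0.367 CPM in ko and 7.47 ± 0.244 CPM in ff (SD, n = 2 per group), a 6.08-fold difference with an edgeR adjusted p of 8.56e-05, above the fold of each Ifit gene. Stat2 and Irf9, which act in the response to type I interferon, rose less, Stat2 by a log2 fold change of 0.88 ± 0.09 (SE, edgeR adjusted p = 0.00182) and Irf9 by 0.52 ± 0.09 (adjusted p = 0.0358). Irf9 missed the threshold without ff library 5, at 0.43 with an adjusted p of 0.0726. The median over the 10 factors was 0.28.

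Sensors of RNA and their adaptors, taken as 1 list, lie upstream of the same genes in virus infection. Of the 13 tested 4 rose and 0 fell, against 1.19% and 0.518% of all tested genes, with a median log2 fold change of 0.55. Zbp1, which binds nucleic acids of the Z form, rose by 2.27 ± 0.14 (SE) on the log2 scale with an edgeR adjusted p of 0.000218. Rigi, Dhx58 and Ifih1, the helicases of the RIG-I family, had 109 ± 3.90, 65.8 ± 3.82 and 112 ± 9.60 CPM in ko, against 53.0 ± 0.325, 32.9 ± 2.39 and 56.2 ± 0.299 CPM in ff (SD, n = 2 per group). Their log2 fold changes were 1.03, 1.00 and 0.99, with edgeR adjusted p of 0.000592, 0.00254 and 0.00129. Without ko library 1, or with no filter on low counts, the list had 7 members higher.

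Among inhibitors of interferon signalling 1 of 7 rose and 1 fell, with a median log2 fold change of 0.15. The shares over all tested genes were 1.19% higher and 0.518% lower. Usp18, which blocks the type I receptor and is induced by it, had 41.4 ± 1.59 CPM in ko and 12.3 ± 0.475 CPM in ff (SD, n = 2 per group), a log2 fold change of 1.74 with an edgeR adjusted p of 0.000297. Pias1, a SUMO ligase, fell by 0.46 on the log2 scale with an adjusted p of 0.0402, and missed the threshold without ff library 2, at 0.138.

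Genes of the RNA cap and of translation initiation did not pass in either direction by the edgeR test. With 1.7% of all tested genes called, lists of this size may well hold no call. Enzymes of the mRNA cap and of 5′ ends, which write or remove the marks that Ifit1 reads, had 0 of 10 genes called and a median log2 fold change of -0.01. Ramac, the activating subunit of the cap methyltransferase, had 128 ± 4.48 CPM in ko and 126 ± 8.60 CPM in ff (SD, n = 2 per group), and Dusp11, a phosphatase of RNA 5′ ends, had 77.5 ± 0.872 in ko and 87.8 ± 4.51 in ff. Subunits of eIF3, the translation initiation factor that human IFIT1 and IFIT2 bind, had 0 of 13 called and a median of 0.24. Eif3a and Eif3e, its most abundant transcripts here, had log2 fold changes of -0.02 and 0.25 with edgeR adjusted p of 0.902 and 0.187. DESeq2 called 1 subunit higher, Eif3f (named after its values were seen), at a log2 fold change of 1.00 with an adjusted p of 0.000584, where edgeR gave 0.0875. Eif3f also passed without either ko library and with no filter on low counts.

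Other antiviral effectors rose beside the Ifit genes, with 14 of 20 higher and 0 lower and a median log2 fold change of 1.44. By comparison, 1.19% of all tested genes were higher and 0.518% lower. Each member's log2 fold change lay above that median. Ifi44, a cytoplasmic protein induced by interferon, and Oas3 and Oasl1, of the oligoadenylate synthetase family, moved further than the Ifit genes, with log2 fold changes of 4.10, 3.74 and 2.71 (edgeR adjusted p of 6.3e-05, 6.3e-05 and 8.56e-05). Oasl2 was nearest to them in size, at 220 ± 0.498 CPM in ko and 56.4 ± 1.66 CPM in ff (SD, n = 2 per group) and a log2 fold change of 1.96. None of these differences from the Ifit genes was tested. The pathway lists were written with earlier results of these data known, so their counts describe the libraries and carry no independent weight.

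**Figure D4:**
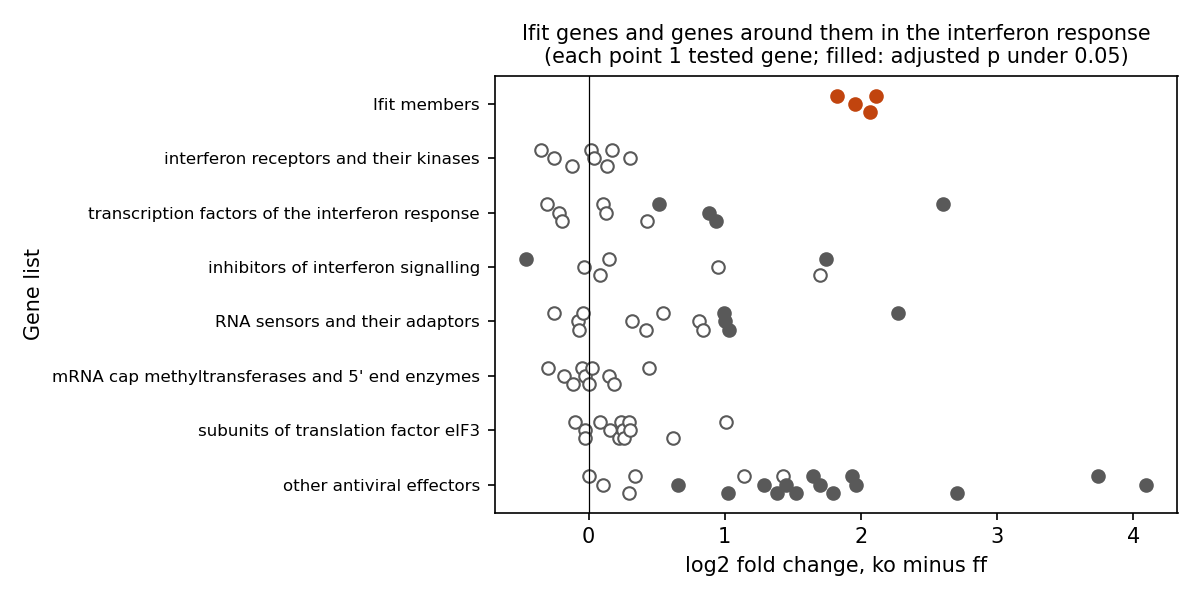
Log2 fold change of ko minus ff (x axis) of the 4 Ifit members and of each tested gene in 7 lists around them (rows); filled points have an edgeR adjusted p under 0.05. All 4 Ifit members are filled, as are 4 of 10 transcription factors and 14 of 20 other antiviral effectors.

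The genes whose pattern over the 4 libraries was most like that of the Ifit genes were found by the Euclidean distance between log2 CPM values (with 0.5 CPM added), each gene centred on its own mean, and the mean centred values of the 4 members. Only tested genes with a mean of at least 1 CPM were ranked, without the members and without symbols of the Gm, Rik and LOC kinds. The nearest 6 of these were Nlrc5 (0.158), Mx1 (0.162), Oasl2 (0.213), Gbp8 (0.270), Gbp2 (0.292) and H2-K1 (0.310). The members themselves lay between 0.0889 (Ifit3) and 0.264 (Ifit2) from their mean. Nlrc5 had 27.7 and 30.0 CPM in ko libraries 1 and 3, against 7.43 and 7.20 CPM in ff libraries 2 and 5, and Mx1 had 45.9 and 41.3 CPM in ko and 12.6 and 10.2 CPM in ff. The distance rests on 4 libraries and holds the difference between the groups, so it is a description of these libraries.

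The rise held under every alternative that was run. Over the 10 alternatives for Ifit1 and Ifit2 and the 11 for Ifit3 and Ifit3b, each gene stayed higher in ko with an adjusted p under 0.05. The log2 fold change ran from 1.64 to 1.99 for Ifit1, from 1.90 to 2.00 for Ifit2, from 1.92 to 2.20 for Ifit3 and from 1.85 to 2.39 for Ifit3b. The extremes of Ifit1, Ifit3 and Ifit3b came with the removal of an ff library. The largest adjusted p was 0.00185, for Ifit3b with the filter of 50 counts.

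**Figure D5:**
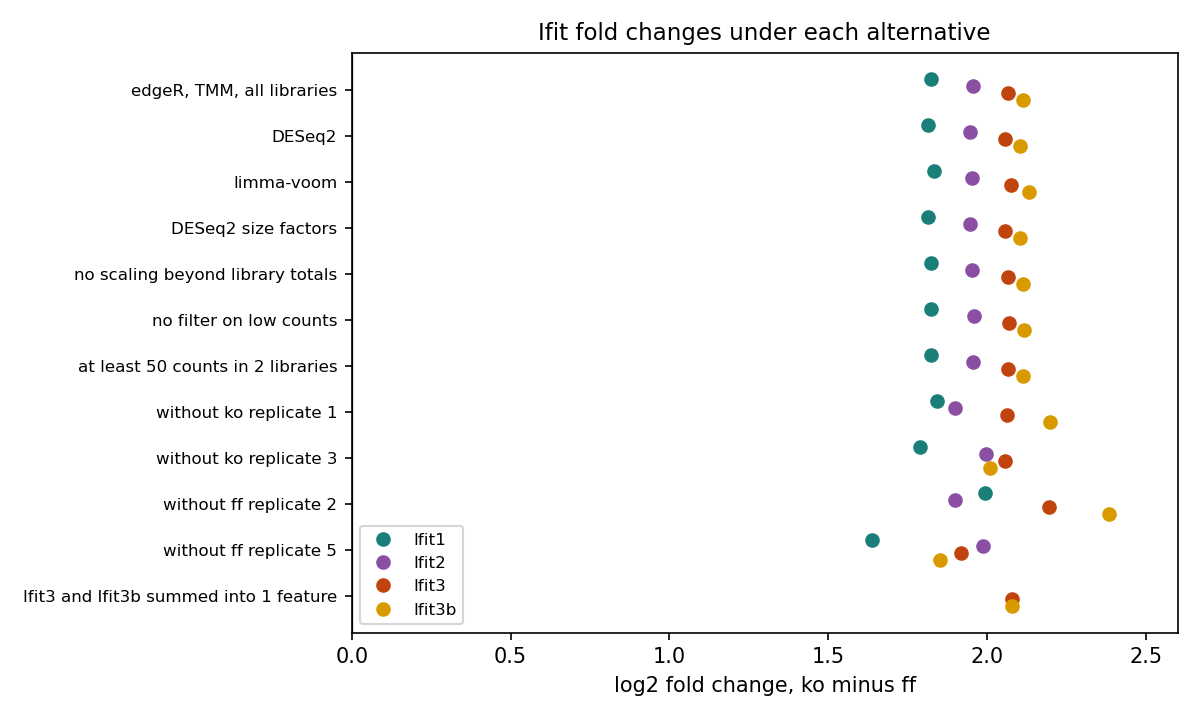
Log2 fold change of ko minus ff (x axis) of each Ifit member (colours) under the edgeR fit and each alternative (rows). All points lie between 1.64 and 2.39, and Ifit1 and Ifit3b move most when ff library 2 or 5 is left out.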

How the data were processed

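Poly(A) RNA from TRIzol extracts was sequenced as paired 150-base reads, per the labels' protocols and the series' design text. The authors aligned filtered reads to GRCm39 with HISAT2 2.0.5, per the submitters' processing notes. How reads were counted, with which annotation and strand setting, is not stated there or in the labels. The authors deposited raw counts, 1 whole number per gene and library. Of the 26054 lines of their table, 3 held stray text and were left out.

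Genes were filtered with edgeR's filterByExpr (15840 kept, holding 99.85% of counts), scaled by trimmed mean of M-values, and compared in edgeR 4.0.16 (R 4.3.3) by its quasi-likelihood test with robust estimation. Adjustment followed Benjamini and Hochberg over all tested genes with a threshold of 0.05. SEs are the log2 fold change over the root of the F statistic. Within each group the 2 libraries differed beyond sampling noise (chi-square per degree of freedom of 15.1 in ko and 7.85 in ff). On counts simulated from the trend of spread that edgeR fitted here, the test recovered 32% of 1.5-fold, 62% of 2-fold and 86% of 4-fold changes. Of its 146 calls 7 were false. Because that trend came from the same fit, genes that depart from it were not checked.

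The members and lists were chosen with earlier results of these data known. Named genes are the members, Ifit1bl1, Ifit1bl2, Hat1, locus neighbours, up to 4 called genes of each list by size of change or else its 2 most expressed, and the 6 most alike. Alternatives were DESeq2 1.42.0, limma-voom (limma 3.58.1), other scalings and filters, summed paralogs and each library left out. A result on 1 listed gene is not reported here. Promoters came from RefSeq on GRCm38.p6 and lengths from GENCODE M21.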

Additional observations from a re-analysis of the deposited data

How the results depend on the processing

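All 4 Ifit genes were called higher in ko under each alternative, and their summed level was 3.77 to 4.18 times that of ff over scalings and left-out libraries. The number of genes called was less stable. It was 270 (188 higher, 82 lower) with edgeR, 554 (331 higher, 223 lower) with DESeq2 and 1386 (779 higher, 607 lower) with no filter on low counts. With no scaling beyond library totals 142 genes were lower. Leaving out each library in turn gave 198 to 1213 calls, 143 to 860 higher and 55 to 585 lower. The cause of these changes was not tested, beyond that a fit on 3 libraries holds 1 group with a lone library, which is assumed to vary like the rest. No paired analysis was possible because the ko and ff libraries share no replicate number. Ifit1bl2 and the interferon genes had too few counts at these depths for a comparison.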
